A study of Mus musculus with 4 samples.

Results

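The hypothalamus of a mouse given 2000000 C26 cells was compared with that of sham-injected mice, by subtracting the log2 expression values of the control array from those of the array of that mouse, gene by gene. C26 is a mouse colon adenocarcinoma line that causes cachexia, the wasting of muscle and fat that accompanies some tumours. All mice were male CDF1 animals, a cross of BALB/c and DBA/2, aged 10 to 11 weeks. The cells were inoculated under the skin of the flank in 0.2 ml of Hanks' balanced salt solution, and the hypothalamus was taken on day 20. Controls received the same volume without cells. The control array held pooled RNA of 4 animals. The array of 2000000 cells (2M) is recorded as 1 animal, although its title calls it pooled. The other arrays of the pilot study, with 500000 cells (0.5M, 4 animals) and 1000000 cells (1M, 3 animals), are given beside them as values. Every probe set with exactly 1 gene symbol was used, 1 row per gene, which gave 19938 genes from 35556 probe sets. With 1 array per side there is no replicate and no test: every value below is a difference between 2 arrays, and an effect of the cell number cannot be told apart from the individual variation of the single animal.

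The hypothalamus sets food intake and energy expenditure through small groups of peptide neurons. Neurons of the arcuate nucleus that make neuropeptide Y and agouti-related peptide promote feeding, and their neighbours that make pro-opiomelanocortin products restrain it. Tanycytes line the third ventricle and pass signals between cerebrospinal fluid, blood and these neurons. In tumour-bearing animals the brain is exposed to cytokines of the interleukin-6 family and to adrenal glucocorticoids. Both act on brain endothelium and glia, where they induce well known sets of target genes.

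The arrays resembled each other closely, with Pearson correlations over all probe sets from 0.984 to 0.994 and 0.990 between 2M and control. Counts were made over the 11963 genes whose mean over the 4 arrays reached the 40th percentile, 6.59 log2, called past the filter here. Of these, 148 stood at least 0.5 log2 (1.41-fold) higher in 2M, which is 1.24%, and 149 stood at least as far lower, 1.25%. At 1 log2, a doubling, the counts were 17 higher (0.142%) and 8 lower (0.0669%). The standard deviation of the 2M differences was 0.21 log2 over these genes and their median 0.01. Between the 1M and 0.5M arrays, which differ in cell number and animals but both come from tumour-bearing mice, the standard deviation was 0.19 log2. There, 1.28% of genes were 0.5 log2 apart in either direction, against 2.48% between 2M and control. Over all 19938 genes the comparison of 2M with control gave 354 higher (1.78%) and 245 lower (1.23%), but the share of 1M against 0.5M was 3.29%, above the 3.00% of 2M against control, so the unfiltered count was no larger than between those 2 arrays. Over all genes, 56.1% of the differences were above 0 and 43.7% below, and past the filter 51.8% and 48.2%. The set of 148 held 121 protein-coding genes and 15 small RNA genes, and the set of 149 held 134 and 8. Because the filter took the mean over all 4 arrays, a gene low in control could pass it through the tumour-bearing arrays. A control value below the filter value was found in 36 of the 148, and a 2M value below it in 14 of the 149. With the filter taken on the 2M and control arrays only, 142 genes were higher and 150 lower. In 104 of the 148 the 2M array was the highest of the 4, and in 109 of the 149 the lowest. Over all genes past the filter, 17.5% were highest in 2M and 21.8% lowest. Picking genes by the distance of 2M from control itself raises these counts, so they are no separate support. In bulk tissue, fewer cells of a type and less RNA per cell cannot be told apart.

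**Figure D1:**
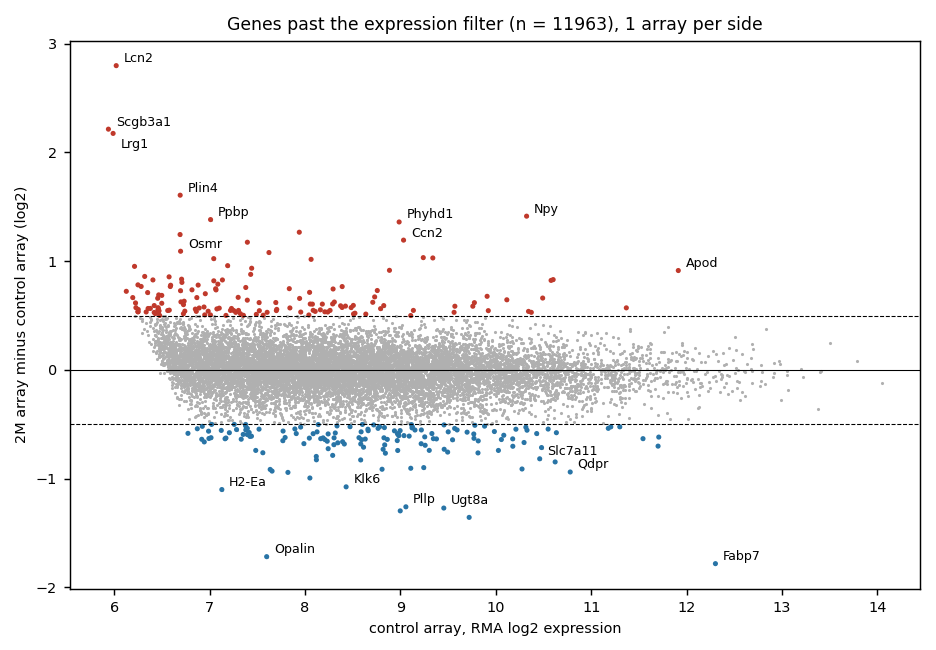
Difference between the 2M and control arrays (log2, vertical axis) against the log2 level in the control array (horizontal axis) for the 11963 genes past the filter, with dashed lines at 0.5 log2 either way. Red points are the 148 higher genes and blue points the 149 lower genes; Lcn2, Scgb3a1 and Lrg1 lie farthest above 0, and Fabp7 and Opalin farthest below.

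The 3 largest differences, all on the higher side, belonged to genes of secreted proteins. Lcn2 encodes lipocalin-2, which binds bacterial siderophores. It read 6.02 log2 in control, 8.53 in 0.5M, 8.23 in 1M and 8.82 in 2M, so 2M stood 2.80 log2 or 6.96-fold above control. Scgb3a1 encodes a small secretoglobin. It read 5.94, 8.22, 7.97 and 8.15 in the same order, a difference of 2.21 for 2M. Lrg1 encodes a leucine-rich glycoprotein that the liver and endothelium secrete in inflammation. Its values were 5.99, 7.96, 7.84 and 8.16, a difference of 2.17. In all 3 genes the control was below the filter value of 6.59 and the tumour-bearing arrays lay close together, far above it, so most of the distance was already present in 0.5M. Background compresses low array values, so these folds may be understated.

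The list of interleukin-6 family signalling and acute-phase genes had 32 measured members of 35. Like the other lists, it was chosen with earlier results of these data known. Lcn2, Scgb3a1, Lrg1 and Osmr, among the highest genes of the comparison, are on it, so its share of higher genes is partly set by that choice. Its median difference was 0.28, against 0.03 over all genes. Above 0 were 24 members, while 56.1% of all genes were. At least 0.5 log2 higher stood 8 members, 25%, against 1.78% of all genes, and 0 stood as far lower. Besides those above, Osmr, the receptor subunit for oncostatin M, read 6.69 in control, 7.71 in 0.5M, 7.77 in 1M and 7.79 in 2M. That difference of 1.09 was nearly the same in all tumour-bearing arrays. Hamp, the iron hormone hepcidin, was 0.98 above control, Timp1, an inhibitor of matrix metalloproteases, 0.80, Fga, a fibrinogen chain, 0.58, and Ch25h, which makes 25-hydroxycholesterol, 0.56. These 4 are dim genes below the filter. Among the transducers, Il6st (gp130) stood at -0.08, Stat3 at -0.08 and Lifr at 0.12, all within the standard deviation of 0.21. Socs3, the feedback inhibitor that STAT3 induces, was 0.40 higher and Serpina3n, an acute-phase protease inhibitor of astrocytes, 0.34. Other liver products of the list differed among themselves, with Saa1 at 0.34, Hp at -0.02, Orm1 at 0.03, Saa3 at 0.00 and Saa2 at -0.16, all below the filter. The cytokines themselves read low on all arrays: Il6 was 0.17 and Osm 0.31 above control, both below the filter. Of the 28 measured cytokine and NF-kB genes the median was 0.10, with Nfkbia, the inhibitor of NF-kB, at 0.55 and Il1a, interleukin-1 alpha, at -0.79 as the only members past 0.5 log2. Neutrophils also make Lcn2, so their markers are given here: the platelet and neutrophil list had a median of 0.16 (0.74 over the members past the filter), with 11 of 15 members above 0, 13 of 15 below the filter and a mean level of 5.42 in control, 5.50 in 0.5M, 5.67 in 1M and 5.64 in 2M. The neutrophil granule genes Ngp, Elane and Mmp9 stood at -0.09, -0.04 and -0.11. Camp, S100a8 and S100a9, also made by neutrophils, stood at 0.30, 0.23 and 0.45 and the neutrophil receptor Cxcr2 at 0.31. Their part in the Lcn2 difference was not tested. Ppbp, a platelet chemokine, was the exception in that list. It read 7.01 in control, 8.04 in 0.5M, 8.34 in 1M and 8.39 in 2M, while Pf4, its platelet neighbour, stood at -0.06.

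STAT3 binds palindromes such as TTCCNGGAA. In the 250 bases before the start, on either strand, this motif was found in 4 of the 28 list genes with a RefSeq window (Fga, Steap4, Icam1 and Scgb3a1), 14.3%, and in 1.09% of 27025 genes. Scgb3a1, the second-highest gene of the comparison, holds 1 match, shown in capitals in a stretch of 120 bases of RefSeq assembly GRCm38.p6.
Scgb3a1 upstream window, chr11:49663345-49663464, plus strand: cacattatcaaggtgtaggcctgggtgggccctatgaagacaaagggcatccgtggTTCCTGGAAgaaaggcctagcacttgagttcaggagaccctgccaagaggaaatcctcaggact
Lcn2, Lrg1 and Osmr do not hold these letters in that window, which says nothing of the factor. The match is a description of letters, not evidence of binding.

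Genes that glucocorticoids induce made up the list with the highest median, 0.38 over 28 measured members of 29. There 11 members, 39.3%, stood at least 0.5 log2 higher against 1.78% of all genes, and 0 stood as far lower. Above 0 were 24 members, while 56.1% of all genes were. The 2M array was the highest of the 4 in 13 of the 28, and in 20.2% of all genes. Plin4, a coat protein of lipid droplets, read 6.69 in control, 7.88 in 0.5M, 8.15 in 1M and 8.30 in 2M, a difference of 1.61 or 3.05-fold. Sult1a1, a phenol sulfotransferase, read 7.43, 7.85, 7.71 and 8.31, a difference of 0.88. Pdk4, the kinase that turns off pyruvate dehydrogenase in fasting, read 8.73, 9.13, 9.22 and 9.40. In each of the 3, control was the lowest array and 2M the highest. The co-chaperone Fkbp5 stood 0.53 higher, the kinase Sgk1 0.59, the lysophosphatidylcholine transporter Mfsd2a of the blood-brain barrier 0.66, Map3k6 0.69, the arrestin-like Arrdc2 0.77 and Hif3a 0.53. Other widely used targets lay nearer to control. Ddit4 and Dusp1 were 0.49 higher, Klf9 0.33, Zbtb16 0.24, Per1 0.18 and Tsc22d3 (GILZ) 0.06. The metallothioneins Mt1 and Mt2 stood at 0.22 and 0.06. The receptors themselves, Nr3c1 (glucocorticoid) and Nr3c2 (mineralocorticoid), stood at -0.11 and -0.17, and Hsd11b1, which regenerates active hormone, at -0.15. Lcn2 and Nfkbia belong to this list and to an inflammatory list as well. Sgk3, a relative of Sgk1 that was not on the list, read 7.94 in control, 8.70 in 0.5M, 8.74 in 1M and 9.21 in 2M, and was 1.27 higher.

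The palindrome to which the glucocorticoid receptor binds was searched on both strands as AGAACA and TGTTCT with any 3 bases between them. It was present in the 250-base window of 1 of the 23 list genes with a window, Sgk1, before 1 of its 6 annotated starts, and in 3 of 27025 genes, 0.0111%. The 30 bases around it are shown because Sgk1 is the textbook target of this element, with the match in capitals.
Sgk1 upstream window, chr10:21993693-21993722, plus strand: atgcggaaAGAACAGAATGTTCTcggagat
The strict palindrome is rare in any promoter window, so its lack elsewhere in the list says only that these letters are not there.

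**Figure D2:**
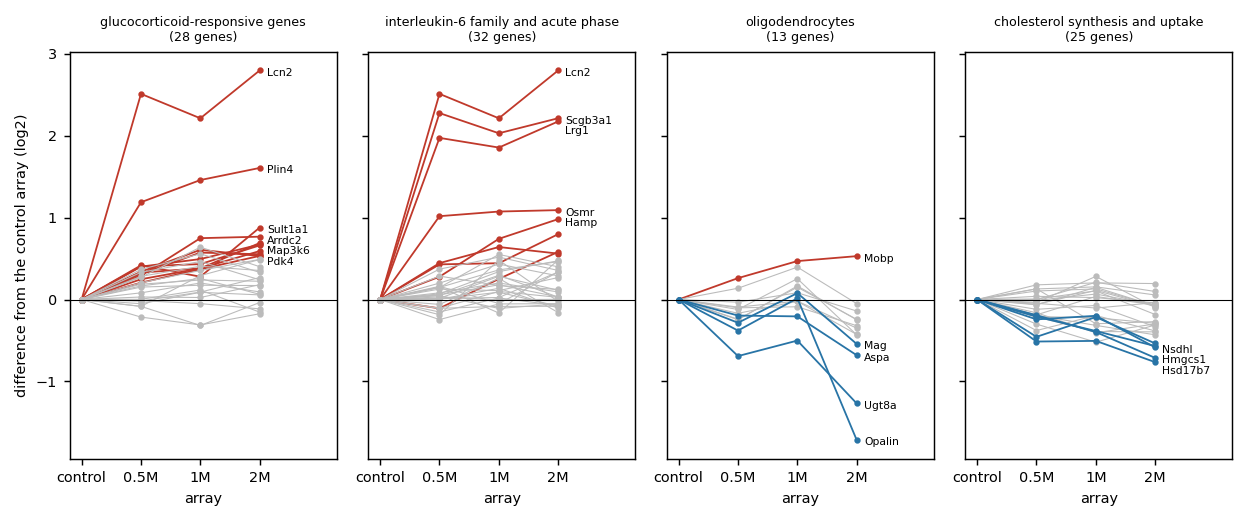
Difference from the control array (log2, vertical axis) in the 0.5M, 1M and 2M arrays for every measured member of 4 lists; all points share the control array, which is 0 by construction. Members at least 0.5 log2 from control in 2M are red (higher) or blue (lower); Lcn2 and Plin4 are high in every tumour-bearing array, while Opalin, at -1.72 in 2M, is near 0 in 1M.

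Among the appetite peptides, Npy stood apart. Neuropeptide Y is among the strongest feeding stimuli in the hypothalamus. It read 10.32 log2 in control, 10.73 in 0.5M, 10.53 in 1M and 11.74 in 2M. The 2M array was thus 1.41 log2 or 2.67-fold above control and 1.00 above the highest of the other arrays, which lay within a narrow range. Agrp, which is made by the same arcuate neurons, was not analysed here. The other peptides that promote feeding were less far from control. Pnoc (nociceptin) was 0.41 higher, Pmch (melanin-concentrating hormone) 0.36, Gal (galanin) 0.34 and Qrfp 0.32, while Hcrt (orexin) stood at -0.03. Over the 9 measured orexigenic peptides of 10 the median was 0.32, with 6 above 0, while 56.1% of all genes were. Npy was the only one past 0.5 log2 (11.1%, against 1.78% of all genes).

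The 19 peptides that restrain feeding showed no common direction. Their median was 0.14 over all 19 and -0.04 over the 10 past the filter. Pomc, the precursor of the melanocortins, was the lowest member at -0.46, followed by Cartpt at -0.32. Arcuate neurons make both, but values of bulk tissue do not show which cells they come from. Adcyap1 (PACAP) stood at -0.22, Grp at -0.16 and Cck at -0.15. On the other side, Trh was 0.38 higher, Nmb 0.36 and Nts 0.20. Crh, corticotropin-releasing hormone, read 5.28 in control, 5.07 in 0.5M, 5.09 in 1M and 5.96 in 2M. It was 0.67 higher in 2M alone, but below the filter on all arrays. Npy and Pomc stood on opposite sides of control, at 1.41 and -0.46. Of 10 measured anterior pituitary genes, 7 were above 0, while Cga and Tbx19 stood at -0.50 and -0.72. The part of pituitary tissue in the Pomc difference was not tested.

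The receptors for these peptides and for hormones of energy balance differed little. Over 32 measured receptors the median was 0.06 and the range -0.37 (Ntsr2) to 0.51 (Brs3, a bombesin-like receptor, below the filter). The leptin receptor Lepr stood at 0.09, the melanocortin receptors Mc3r and Mc4r at 0.10 and 0.25, the ghrelin receptor Ghsr at 0.30, and Npy1r and Npy2r at 0.30 and 0.08. Gfral, the receptor for the cachexia-linked cytokine GDF15, is known from the hindbrain, and it stood at -0.04, below the filter. Prohormone processing enzymes and granins had a median of 0.00 over 12 members, from -0.35 for Prcp to 0.37 for Vgf.

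Of the neuroendocrine peptides, the 2 hormones of the posterior pituitary were higher. Oxt (oxytocin) read 9.77 in control, 10.56 in 0.5M, 10.59 in 1M and 10.39 in 2M, a difference of 0.62. Avp (vasopressin) read 9.92, 10.42, 10.48 and 10.47, a difference of 0.55. For both genes control was lowest and the 3 tumour-bearing arrays lay close together. Vip was 0.50 and Sst (somatostatin) 0.35 higher, Ghrh, which drives growth hormone release, stood at -0.42 and Tac1 at -0.21. The median over the 16 members was 0.13. In the thyroid hormone axis, with a median of 0.21 over 13 measured genes, Crym was the only member past 0.5 log2. Crym binds triiodothyronine in the cytosol, and read 7.70, 7.60, 7.75 and 8.24, so the 2M array alone stood out. The thyroid hormone target Hr was 0.47 higher, the activating deiodinase Dio2 0.24 and the inactivating Dio3 0.25, while the receptors Thra and Thrb stood at 0.16 and 0.03.

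The lowest gene of the whole comparison was Fabp7, brain lipid-binding protein, a marker of radial glia, tanycytes and astrocytes. It read 12.30 log2 in control, 11.60 in 0.5M, 11.58 in 1M and 10.52 in 2M, so 2M was 1.78 log2 or 3.44-fold lower and the other tumour-bearing arrays lay between. Gpr50, an orphan receptor of tanycytes, read 9.81, 9.39, 9.28 and 9.05, a difference of -0.76. The other tanycyte and radial glia markers did not follow. Of 14 measured members, 9 were below 0, against 43.7% of all genes. The median was -0.08, with Vim at -0.07, Col23a1 at -0.11, Rax at -0.14, Sox2 at -0.23, Dio2 at 0.24 and Crym at 0.55. The astrocyte list had a median of -0.03 over 16 members, and its mean level was 10.36 in control and 10.30 in 2M. Gfap, the filament protein of reactive astrocytes, stood at -0.03. Agt, angiotensinogen, was 0.57 higher and Aqp4, the water channel of the endfeet, was 0.65 lower. Fabp5, the epidermal relative of Fabp7 among the fatty acid-binding proteins, stood at -0.64, and Fabp3 at -0.14. In the fatty acid and ketone list of 32 genes, 23 were below 0, against 48.2% of genes past the filter, and the median was -0.11. Slc16a1, the monocarboxylate transporter that carries lactate and ketones, was 0.69 lower, and the desaturase Scd1 stood at -0.45. Pdk4, given above, was the only member past 0.5 log2 on the higher side.

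Transcripts of mature oligodendrocytes, the myelin-forming cells, were lower in 2M. The list had the lowest median of the 52 lists, -0.35, with 12 of 13 measured members below 0, and in 12 of 13 the 2M array was the lowest of the 4. Over all genes past the filter, 48.2% were below 0 and 21.8% were lowest in 2M. Opalin, a membrane protein found in mature oligodendrocytes, read 7.60 in control, 7.22 in 0.5M, 7.61 in 1M and 5.88 in 2M, a difference of -1.72 and 1.34 below the nearest array. Ugt8a, which makes the myelin lipid galactocerebroside, read 9.45, 8.76, 8.95 and 8.18, a difference of -1.27. Aspa, which cleaves N-acetylaspartate, stood at -0.68 and Mag, myelin-associated glycoprotein, at -0.54. So 4 members, 30.8%, were at least 0.5 log2 lower, against 1.23% of all genes. The abundant structural myelin genes lay nearer to control, with Mbp at -0.14, Cnp at -0.43, Mog at -0.43 and Mal at -0.32. Mobp was the exception and stood 0.53 higher. The list's mean level was 9.74 in control, 9.57 in 0.5M, 9.79 in 1M and 9.28 in 2M, so 1M, the array with 3 animals, did not share the difference. In the precursor list of 10 genes the median was 0.04, with 7 above 0 and 3 below. Pdgfra and Cspg4, which mark dividing precursors, stood at 0.04 and 0.24, and Gpr17 at -0.13. Enpp6 and Bcas1, which mark newly forming oligodendrocytes, were 0.76 and 0.59 lower. They were the only members past 0.5 log2, 20% of the list against 1.23% of all genes.

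Some of the lowest genes outside the list are known from oligodendrocytes. They were picked for their low values in these data, so they add no separate support to the list. Pllp, plasmolipin, read 9.06 in control, 8.64 in 0.5M, 8.86 in 1M and 7.80 in 2M, a difference of -1.26. Klk6, a protease of oligodendrocytes, read 8.43, 7.67, 8.14 and 7.36, a difference of -1.07. Car2, a carbonic anhydrase, read 10.62, 10.39, 10.30 and 9.78, a difference of -0.85. For Pllp the 2M array was alone, while Klk6 in 0.5M lay near 2M. Qdpr, which regenerates tetrahydrobiopterin, was 0.94 lower, at 10.78 in control and 9.84 in 2M.

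**Figure D3:**
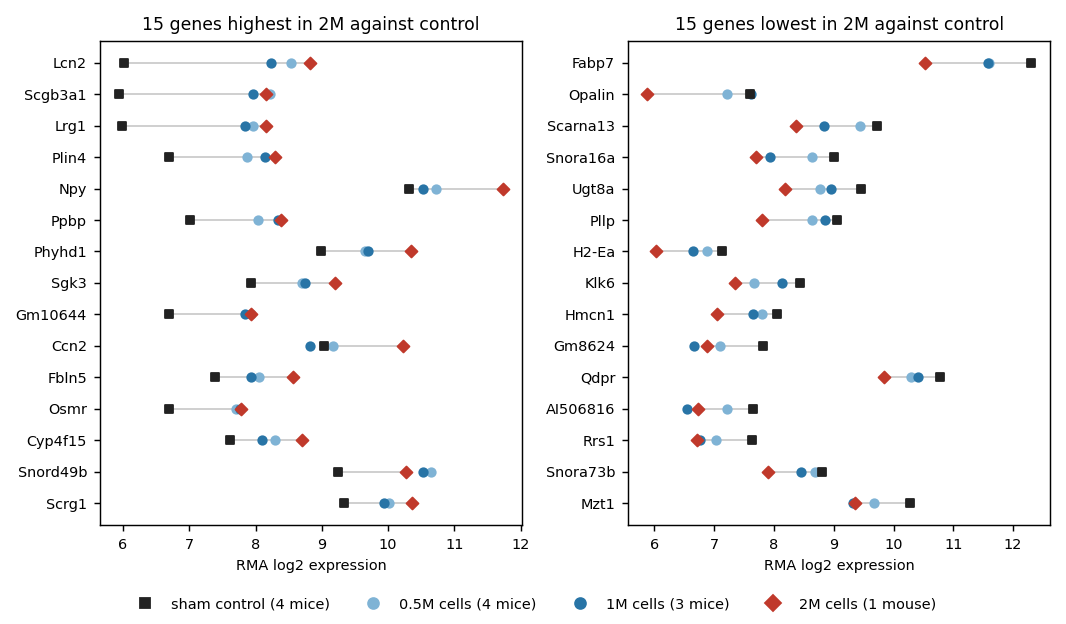
Values on the RMA log2 scale (horizontal axis) of the 15 genes highest (left) and 15 lowest (right) in 2M against control, with 1 point per array. In the left panel the black control square lies apart from the coloured tumour-bearing arrays for Lcn2, Scgb3a1 and Lrg1, whereas for Npy and Ccn2 the red 2M diamond lies apart from the rest.

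The cholesterol pathway was lower as a group. Of 25 measured members of 29, all past the filter, 22 were below 0, the median was -0.27, and 17 were lowest in 2M. The shares over all genes past the filter were 48.2% below 0 and 21.8% lowest in 2M. At least 0.5 log2 lower were 5 members, 20.0%, against 1.23% of all genes, and 0 were as far higher. Hmgcs1, the enzyme that makes HMG-CoA, read 10.48 in control, 10.29 in 0.5M, 10.08 in 1M and 9.76 in 2M, a difference of -0.71. Hsd17b7, a late sterol reductase, read 8.84, 8.33, 8.34 and 8.08, a difference of -0.77. Nsdhl and Msmo1, which remove the methyl groups of lanosterol, stood at -0.58 and -0.57, and Ebp, the sterol isomerase, at -0.54. In all 5 the 2M array was the lowest and control the highest. Further steps lay on the same side by less, with Idi1 at -0.43, Sc5d at -0.40, Lss at -0.38, Sqle at -0.33 and Cyp51 at -0.30. The regulators Srebf2, Insig1 and Insig2 stood at -0.18, -0.29 and -0.31, and Scap at 0.06. The exporters Abca1 and Abcg1 stood at -0.04 and 0.10, and Cyp46a1, the neuronal enzyme that clears cholesterol, at 0.19. Oligodendrocytes make much of the brain's cholesterol, and their markers were lower in the same array, with 12 of 13 below 0 as given above. Their part in the cholesterol difference was not tested.

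Promoters of sterol genes are known for CCAAT boxes, bound by NF-Y beside the sterol-regulated factor SREBP. CCAAT, or ATTGG on the other strand, was found in the 250 bases before the start of 17 of the 20 list genes with a RefSeq window, 85.0%, including 5 of the 5 genes past -0.5 log2, and in 37.5% of 27025 genes. The windows of these 5 genes are printed because they share this feature and the direction of the difference. They run to the base before the annotated start, in the direction of transcription, with the matches in capitals (RefSeq, GRCm38.p6).
Hmgcs1 upstream window, chr13:119690101-119690350, plus strand: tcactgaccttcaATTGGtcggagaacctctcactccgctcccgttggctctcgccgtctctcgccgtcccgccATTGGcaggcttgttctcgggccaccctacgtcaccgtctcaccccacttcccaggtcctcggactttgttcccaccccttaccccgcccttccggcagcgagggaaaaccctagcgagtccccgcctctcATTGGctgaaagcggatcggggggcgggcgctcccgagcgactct
Hsd17b7 upstream window, chr1:169969206-169969455, minus strand: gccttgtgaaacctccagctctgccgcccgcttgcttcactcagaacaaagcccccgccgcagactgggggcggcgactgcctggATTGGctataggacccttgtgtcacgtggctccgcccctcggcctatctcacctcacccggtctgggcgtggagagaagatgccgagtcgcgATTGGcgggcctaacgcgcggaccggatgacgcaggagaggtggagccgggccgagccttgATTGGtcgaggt
Nsdhl upstream window, chrX:72918271-72918520, plus strand: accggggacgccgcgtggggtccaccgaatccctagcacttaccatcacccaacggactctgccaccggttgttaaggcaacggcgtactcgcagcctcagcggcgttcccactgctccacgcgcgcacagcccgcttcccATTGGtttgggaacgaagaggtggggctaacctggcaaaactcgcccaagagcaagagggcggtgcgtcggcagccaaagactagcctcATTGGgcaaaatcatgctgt
Msmo1 upstream window, chr8:64733579-64733828, minus strand: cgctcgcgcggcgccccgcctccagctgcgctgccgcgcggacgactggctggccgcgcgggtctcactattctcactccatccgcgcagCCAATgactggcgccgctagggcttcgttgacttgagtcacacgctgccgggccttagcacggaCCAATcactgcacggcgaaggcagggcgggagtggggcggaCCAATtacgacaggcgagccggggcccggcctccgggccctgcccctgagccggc
Ebp upstream window, chrX:8193513-8193762, minus strand: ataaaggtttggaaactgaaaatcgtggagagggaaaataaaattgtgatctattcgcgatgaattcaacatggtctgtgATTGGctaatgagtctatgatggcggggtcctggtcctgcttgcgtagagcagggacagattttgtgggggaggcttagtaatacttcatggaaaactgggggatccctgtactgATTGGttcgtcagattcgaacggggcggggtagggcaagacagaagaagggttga
Hmgcs1, Hsd17b7 and Msmo1 hold 3 matches each and Nsdhl and Ebp 2. The match nearest to the start lies 12 bases from it in Hsd17b7, 20 in Nsdhl, 45 in Hmgcs1 and 55 in Msmo1 and Ebp. The short motif occurs in many promoters, and binding was not measured.

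Several immune genes of antigen presentation and of microglia were lower, in contrast to the acute-phase genes, but the medians of the interferon and microglia lists moved with the filter on dim genes. H2-Ea, an MHC class II gene annotated as a pseudogene in the reference, read 7.13 in control, 6.87 in 0.5M, 6.65 in 1M and 6.03 in 2M, a difference of -1.10. In the class II list 5 of 6 measured members were below 0, against 43.7% of all genes. The median was -0.32, and 4 of the 6 lay below the filter. Cd74, the invariant chain, stood at -0.96 and H2-Aa at -0.77, both below the filter, and H2-Eb1 at -0.45. The 22 measured interferon and MHC class I genes had a median of -0.16, and 18 of them were below 0, against 43.7% of all genes. Past the 60th percentile, however, the median was 0.06. B2m, the light chain of class I, read 11.18, 10.89, 10.46 and 10.64, a difference of -0.54. Gbp4, Ifit1 and Iigp1 were 0.61, 0.52 and 0.50 lower but dim. Bst2, at 0.43, and Ifitm3, at 0.22, lay on the other side.

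In the microglia and macrophage list, 13 of 17 measured members were below 0, against 43.7% of all genes, and the median was -0.25. It was -0.02 past the 60th percentile and -0.11 with the filter taken on the 2M and control arrays. The mean level of the list was 7.13 in control, 7.08 in 0.5M, 7.16 in 1M and 6.97 in 2M. The fractalkine receptor Cx3cr1 read 8.59, 8.34, 8.48 and 7.95, a difference of -0.64. Itgam stood at -0.65, Siglech at -0.48, Tmem119 at -0.29 and P2ry12 at -0.25. The complement genes C1qa, C1qb and C1qc, also made by microglia, went the other way, at 0.29, 0.21 and 0.41. P2ry13, a purinergic receptor of microglia that was not on the list, read 8.23, 8.34, 8.46 and 7.58, so 2M was 0.66 below control and every other array above it. Ly86, a partner of a Toll-like receptor relative, was 0.90 lower and Il33, an alarmin of glia, 0.72 lower. Ms4a6c, a myeloid membrane gene, read 6.58, 6.56, 6.11 and 7.13, a difference of 0.55 in the higher direction. T cell and B cell markers were all below the filter, with a median of 0.13 over 9 genes.

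**Figure D4:**
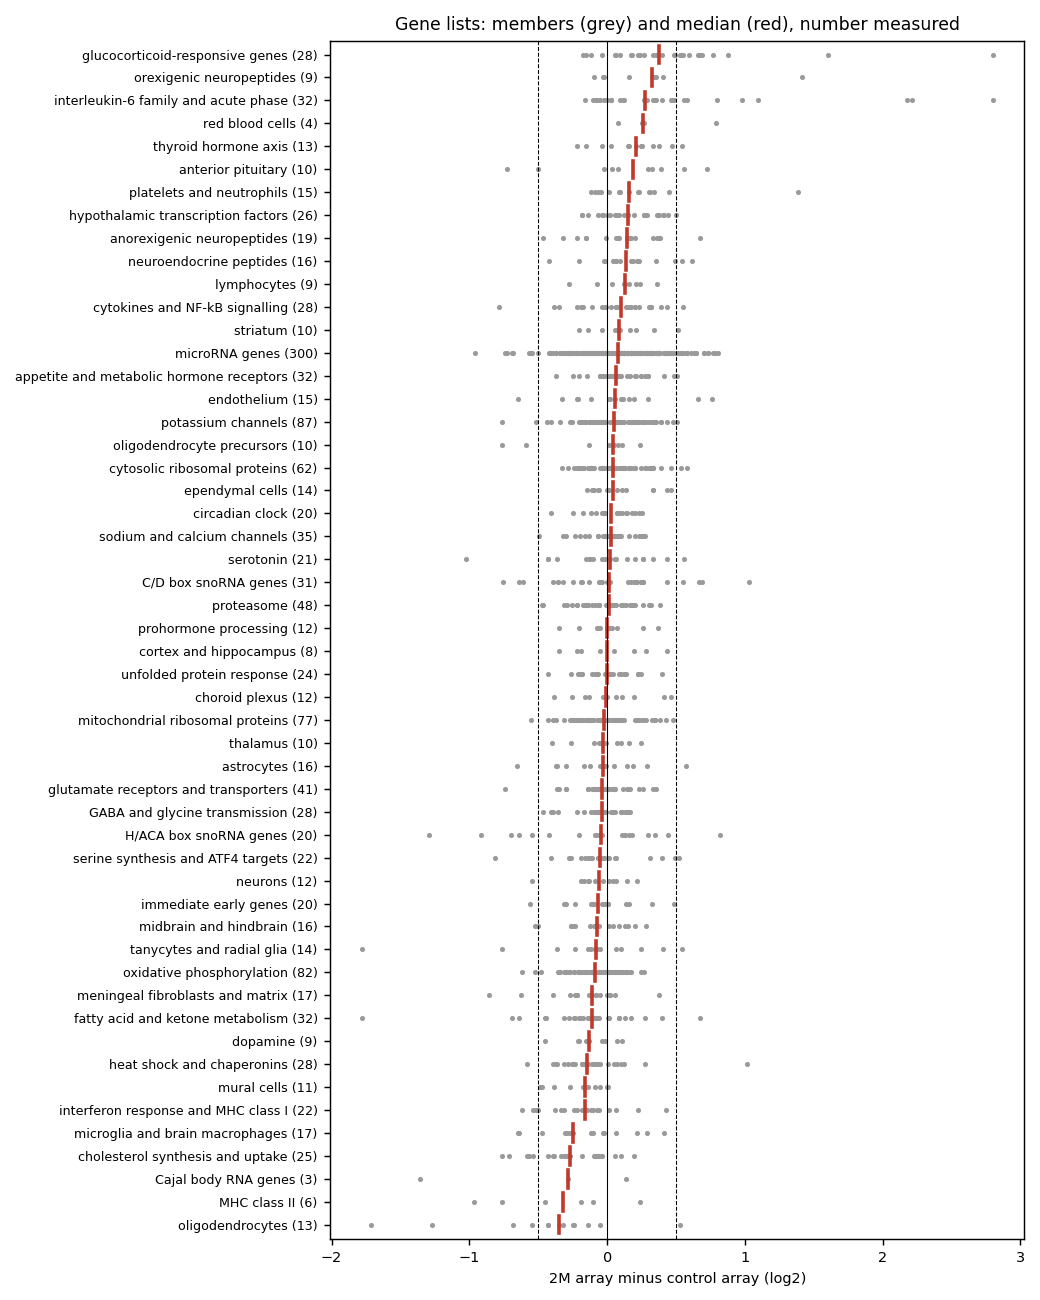
Difference between the 2M and control arrays (log2, horizontal axis) for the measured members of each of the 52 lists (grey points), with the list median (red bar), sorted by median, and dashed lines at 0.5 log2. Glucocorticoid-responsive genes lie at the top with a median of 0.38 and oligodendrocyte genes at the bottom with -0.35; the numbers in brackets are the measured members.

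Vessel genes were mixed. Of 15 measured endothelial genes the median was 0.06, with Vwf (von Willebrand factor) 0.76 and Mfsd2a 0.66 higher and Itm2a 0.65 lower, while Cldn5 and Pecam1 stood at -0.11 and 0.29. Pericyte and smooth muscle genes had a median of -0.16 over 11 members, with Anpep at -0.49 and Acta2 at -0.47. The meningeal and matrix list of 17 genes had a median of -0.11, and Aldh1a2, which makes retinoic acid in the meninges, was 0.62 lower. Ccn2 (CTGF), a matrix protein that responds to mechanical load, read 9.03 in control, 9.17 in 0.5M, 8.82 in 1M and 10.23 in 2M, so 2M was 1.19 higher. Fbln5, an elastic fibre protein, read 7.40, 8.05, 7.92 and 8.57, a difference of 1.17. The Fbln5 values of all tumour-bearing arrays were above control, those of Ccn2 in 2M and 0.5M only.

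Most stress and housekeeping pathways lay near control. Hspb1, the small heat shock protein HSP27, read 8.06 in control, 8.40 in 0.5M, 8.46 in 1M and 9.08 in 2M, and was 1.02 higher. It was the only one of 28 heat shock genes at least 0.5 log2 higher. Their median was -0.14, with 21 below 0, against 48.2% of genes past the filter. The mitochondrial chaperonins Hspe1 and Hspd1 stood at -0.58 and -0.39, and Cryab, a relative of Hspb1, at -0.36. The 82 subunits of oxidative phosphorylation had a median of -0.09, with 55 below 0, against 48.2% of genes past the filter. Only Uqcrb (-0.62) and Atp5pb (-0.53) were past 0.5 log2. The unfolded protein response (24 genes, median -0.00), the proteasome (48, median 0.01) and the clock (20, median 0.03) had 0 members past 0.5 log2. Among 22 amino acid stress genes, with a median of -0.05, Slc7a11, the cystine-glutamate exchanger, read 10.46, 9.83, 9.40 and 9.64, a difference of -0.82, while Cth, which makes cysteine, was 0.52 higher. Asns and Trib3, classical targets of ATF4, stood at -0.19 and -0.12. Of the 20 immediate early genes, with a median of -0.07, Egr1 was the only one past 0.5 log2, at -0.56, and Fos stood at -0.30 below the filter.

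Transmitter, channel and ribosomal genes differed little. The 87 potassium channel genes, 62 cytosolic and 77 mitochondrial ribosomal proteins had medians of 0.05, 0.04 and -0.02, with 1, 2 and 0 members at least 0.5 log2 higher and 2, 0 and 1 lower. The 41 glutamate genes, 28 GABA and glycine genes and 35 sodium and calcium channel genes had medians of -0.04, -0.04 and 0.03. Past 0.5 log2 among them was only Homer2, a postsynaptic scaffold, at -0.74, and with its probe sets averaged it stood at -0.33. The 21 serotonin genes had a median of 0.02, and Htr6, a serotonin receptor, was 0.56 higher. The 9 measured dopamine genes had a median of -0.13, with Th, tyrosine hydroxylase, lowest at -0.45. Th and the dopamine transporter Slc6a3 (-0.21) were both highest in control and lowest in 1M. Tph2, which makes serotonin in the raphe nuclei of the brainstem, read 6.28 in control, 5.44 in 0.5M, 5.12 in 1M and 5.26 in 2M, and the serotonin transporter Slc6a4 stood at -0.43. Both are below the filter and belong to nerve cells outside the hypothalamus. The list of midbrain and hindbrain markers had a median of -0.08 over 16 members, 12 of them below the filter, with a mean level of 5.79 in control, 5.61 in 0.5M, 5.78 in 1M and 5.70 in 2M. En1 and Gata3 stood at -0.50 and -0.52. The part of dissection in the Tph2 and Th differences was not tested.

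Most small RNA genes lay within 0.5 log2 of control, and a few lay far from it on either side. The array carries probe sets for genes of small nucleolar RNAs, most of which guide the modification of ribosomal RNA, and of the related Cajal body RNAs. Scarna13 read 9.72 in control, 9.45 in 0.5M, 8.85 in 1M and 8.36 in 2M, a difference of -1.36, and it was 1 of 3 measured Cajal body RNA genes, whose median was -0.29 (-0.61 over those past the filter). Snora16a read 8.63 in 0.5M, 7.94 in 1M and 7.70 in 2M, the last of which was 1.30 lower than control. In both genes the arrays were spread widely, also between 0.5M and 1M. Snora73b was 0.91 lower, whereas Snord49b was 1.03 higher, with control the lowest array. Of 20 H/ACA box genes (median -0.05) 1 was at least 0.5 log2 higher and 5 lower, and of 31 C/D box genes (median 0.01) 4 and 3, while 1.78% of all genes stood that far higher and 1.23% lower. The H/ACA median was 0.12 past the 40th percentile and -0.42 past the 60th, so it has no settled sign.

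MicroRNA genes were measured through probe sets on the gene or its precursor, which do not read the mature microRNA. Of 300, 21 stood at least 0.5 log2 higher, 7% against 1.78% of all genes, and 9 lower, 3% against 1.23%, and 205 of the 300 lay below the filter. The 5 members past the filter that stood highest above control are shown with their mature sequences in RefSeq, 5′ to 3′, and the seed, bases 2 to 8, in capitals. Mir690, the lowest past the filter, is the last.
mmu-miR-30e-5p: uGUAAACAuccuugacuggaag
mmu-miR-107-3p: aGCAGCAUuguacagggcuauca
mmu-miR-540-3p: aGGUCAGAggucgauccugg
mmu-miR-543-3p: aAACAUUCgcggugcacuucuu
mmu-miR-369-3p: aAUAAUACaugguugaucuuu
mmu-miR-690: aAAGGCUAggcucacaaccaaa
Mir30e read 6.25 in control, 6.96 in 0.5M, 6.96 in 1M and 7.03 in 2M, a difference of 0.78. Mir107 read 6.28, 7.02, 7.23 and 7.05, a difference of 0.77. Control was the lowest array for both, and the others lay close together. Mir540, Mir543 and Mir369 were 0.73, 0.73 and 0.70 higher, and Mir690 was 0.74 lower, at 7.48 in control and 6.74 in 2M. Of the 30 genes past 0.5 log2, 26 had a mature sequence in the table. Their 46 distinct seeds were each held by 1 gene. Some genes, such as Mirlet7a-2 and Mir301b, had only 1 arm there, so seeds shared through missing arms would not be seen. Mir540, Mir543 and Mir369 belong to the imprinted group on chromosome 12, whose 39 measured genes lie between 109571990 and 109743496. In this group 6 genes stood at least 0.5 log2 higher and 2 lower, Mir376c, the lowest of all microRNA genes at -0.96 and below the filter, and Mir494 at -0.55. The group's median was 0.15, with 28 of the 39 above 0. Over the 219 other microRNA genes with a RefSeq hairpin the median was 0.07, with 134 above 0. Of those 219, 12 stood at least 0.5 log2 higher and 6 lower.

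The genes in which 2M stood apart from every other array, rather than from control alone, were few. Past the filter, 7 lay at least 0.5 log2 above the highest of the other 3 arrays (0.0585%) and 12 at least 0.5 below the lowest (0.100%). On the higher side these were Ccn2 (1.05 above the next array), Npy (1.00), Phyhd1 (0.64), Hspb1 (0.62), Apod (0.56), Ms4a6c (0.55) and Fbln5 (0.52). Phyhd1, a dioxygenase of unsettled function, read 8.99 in control, 9.65 in 0.5M, 9.70 in 1M and 10.35 in 2M. Apod, a lipid-carrying lipocalin of glia, read 11.91, 12.27, 11.97 and 12.83. On the lower side were Opalin (-1.34), Fabp7 (-1.06), Pllp (-0.85), P2ry13 (-0.66), H2-Ea (-0.62), Hmcn1 (-0.60), Ugt8a (-0.58), Snora73b (-0.55), Car2 (-0.52), Serpinb1a (-0.52), Il33 (-0.50) and Ly86 (-0.50). Opalin, Pllp, Ugt8a and Car2 are oligodendrocyte genes and P2ry13 and Ly86 are expressed by microglia. For Hmcn1, a basement membrane protein with 77 probe sets, the difference from control of -0.99 became -0.41 with all probe sets averaged. Lcn2, Scgb3a1, Lrg1 and Osmr are in neither group, since the 0.5M and 1M arrays were already high.

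**Figure D5:**
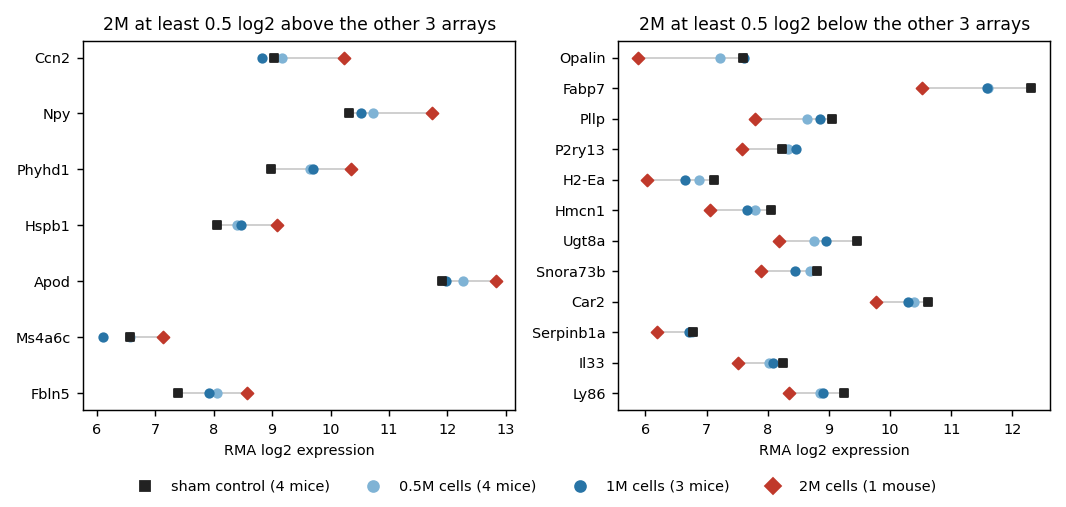
RMA log2 values (horizontal axis), 1 point per array, of the 7 genes in which 2M (red diamond) lay at least 0.5 log2 above all other arrays (left) and the 12 in which it lay at least as far below (right). Npy and Ccn2 have gaps of 1.00 and 1.05 to the next array, and Opalin and Fabp7 of -1.34 and -1.06.

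Marker genes were compared between the arrays, which does not test the tissue label. Of 26 measured hypothalamic transcription factors, 23 were past the filter, as were 11963 of all 19938 genes. So were 9 of 10 striatal markers, 8 of 10 of thalamus and 7 of 8 of cortex and hippocampus. Mean control levels were 7.43 for the hypothalamic factors, 8.51 for striatum, 8.10 for thalamus and 7.77 for cortex and hippocampus. The hypothalamic factors had a median difference of 0.15, with 19 above 0 (56.1% of all genes were) and a mean of 7.59 in 2M. Neuronal markers had a median of -0.06 over 12 members, with Nefm (-0.54) alone past 0.5 log2. Markers of choroid plexus, ependyma, thalamus and cortex had medians of -0.01, 0.04, -0.03 and -0.00 and 0 members past 0.5 log2. Striatal markers had a median of 0.08, and Gpr6 was 0.51 higher. Of the anterior pituitary genes, 10 were measured, with a median of 0.19 that became -0.50 past the 60th percentile. Gh (growth hormone) read 6.13 in control, 10.80 in 0.5M, 6.91 in 1M and 6.85 in 2M, and Prl (prolactin) 3.95, 7.80, 4.50 and 4.51. The high array was 0.5M, so the 2M differences of 0.72 and 0.56 stand against a much larger excursion in another array. Cga, the common subunit of pituitary glycoprotein hormones, stood at -0.50, and Tbx19, a factor of corticotroph cells, at -0.72, below the filter. Alas2, which starts haem synthesis in red cell precursors, was 0.79 higher, and 4 of 4 measured red cell genes were above 0, with a median of 0.26 (0.53 over those past the filter).

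Some dim genes, below the filter, also differed widely. Svs2, a seminal vesicle protein, read 3.93 in control, 4.65 in 0.5M, 4.83 in 1M and 5.76 in 2M, a difference of 1.83. Cyp4a12b, a fatty acid hydroxylase, read 5.35, 5.26, 5.14 and 6.74, a difference of 1.39 present in 2M alone. Casq1, calsequestrin of skeletal muscle, was 0.97 higher and Vaultrc5, a vault RNA, 1.05. On the lower side were Hmgn5 (-1.06), Gm5662 (-0.99) and Gbp11 (-0.96). At these levels hybridisation background makes up much of the value, and 1.78% of all genes stood at least 0.5 log2 higher.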

How the data were processed

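RNA of the hypothalamus was hybridised to an Affymetrix whole-transcript mouse array, 1 array per group, from 100 ng of RNA with an integrity number above 8, per the labels' protocols. The authors deposited log2 expression values for each probe set. The submitters' processing notes name RMA, which corrects background, aligns the arrays by quantiles and summarises probes. A difference common to all transcripts is thereby removed. Its version and a genome build for the probes were not given in the sources used here, so probe coordinates are left out. The number of arrays limits the precision. The platform annotation gave 21789 probe sets 1 symbol, 1621 several and 12146 none. Of the first, 21698 matched RefSeq (GRCm38.p6) by Entrez number. Where a gene had several (999 genes), the probe set brightest on average across the 4 arrays stood for it. The difference is 2M minus control, with thresholds of 0.5 and 1 log2, over genes past the 40th percentile. No column was left without a sample.

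No p-value was computed, because each side is 1 array. Genes were named by a fixed rule, which took 317: the 15 highest and 15 lowest past the filter, the 5 highest and lowest below it, the 10 largest gaps to the other arrays in each direction, in each of 52 lists the 5 members farthest from control and all those past 0.5 log2, and 16 genes in any case. Defining markers, receptors and pathway members named beside them were chosen after their values were seen. The members and lists were chosen with earlier results of these data known. Alternatives were other filters, averaged probe sets, cyclic loess (limma 3.58.1, R 4.3.3) and median centring. Scripts ran in Python 3.11.15 with numpy 2.4.6, pandas 2.3.3 and matplotlib 3.10.9 and were tested on simulated data. Upstream windows of 250 bases and mature microRNAs come from RefSeq.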

Additional observations from a re-analysis of the deposited data

Results flagged for a closer look

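In 5 named genes the 2M array lay at least 0.5 log2 from control and on the opposite side of control from both other tumour-bearing arrays; the difference between cell numbers was not tested. Crh stood at 0.67 in 2M and at -0.21 and -0.20 in 0.5M and 1M. Cyp4a12b stood at 1.39, against -0.08 and -0.20. Ms4a6c stood at 0.55, against -0.02 and -0.47. P2ry13 stood at -0.66, against 0.11 and 0.22, and Ifit1 at -0.52, against 0.13 and 0.03. Crh, Cyp4a12b and Ifit1 are below the filter. Among the 12146 probe sets with no gene name here, which no comparison used, 129 stood at least 1 log2 higher in 2M than in control and 414 at least as far lower. Of the 19938 genes, with no filter, 20 and 10 did. The unnamed probe sets were counted with no filter, and their levels and nature were not examined.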

How the results depend on the processing

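The filter on low values moved the counts most. With no filter, 354 genes were at least 0.5 log2 higher and 245 lower, and 14 and 20 lay that far above and below all other arrays. With the 60th percentile, the first counts were 68 and 98. With cyclic loess they were 136 higher, 135 of them among the 148, and 156 lower, 147 of them among the 149. None of the 317 named genes changed sign under averaged probe sets, cyclic loess or median centring. With probe sets averaged, 5 moved: Hmcn1 to -0.41, Homer2 to -0.33, Mzt1 to -0.54, Cycs to -0.14 and Psma5 to 0.10. The interferon list median was 0.06 with the 60th percentile, and that of the anorexigenic peptides was -0.04 past the 40th, an alternative chosen after seeing the data. No paired analysis was possible because each group is 1 array, and no array could be left out.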
